A study of Mus musculus with 32 samples.

Results

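The genes described here are 44 neuropeptide and secreted hormone genes, taken from a list of symbols and measured by mRNA-seq in amygdala and hippocampus from adult males. All 44 were found among the 53715 genes of both regional tables. They were grouped by role into 10 interneuron peptides, 3 opioid precursors, 15 hypothalamic peptides, 5 genes of the PACAP, CGRP, bombesin-like and related peptides, 3 vascular and glial peptides, 4 granins and 4 pituitary hormones. The study asked whether lowering the H3K4 methyltransferase KMT2A offsets the loss of the H3K4 demethylase KDM5C, so 4 genotypes were compared: wild type (WT), Kmt2a heterozygotes (Kmt2a-HET, labelled 2a-HET), hemizygous Kdm5c knockouts (Kdm5c-KO, labelled 5c-KO) and double mutants (DM). All were F1 hybrid males from 129S1/SvImJ Kmt2a+/- fathers and C57BL/6J Kdm5c+/- mothers, with 4 mice per genotype and 1 library per region and mouse, 32 libraries in all. Both alleles were constitutive and present in every cell, the floxed Kmt2a exons having been removed with a Cre line driven from the ROSA26 locus. Tissue was dissected by hand and whole pieces were sequenced, so fewer cells of a type and less RNA per cell cannot be told apart.

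Neuropeptides are made as precursor proteins, stored in dense-core vesicles, cut and amidated there, and released on strong or repeated firing to act on G protein-coupled receptors. Some, such as somatostatin and neuropeptide Y, come from inhibitory neurons scattered through the cortex, hippocampus and amygdala. Others, such as orexin (Hcrt), melanin-concentrating hormone (Pmch) and oxytocin (Oxt), are made almost entirely by small nuclei of the hypothalamus, beside the amygdala. Vasopressin (Avp) is made there in large part, though not only there. Growth hormone, prolactin and the gonadotropins are products of the anterior pituitary, which hangs below the hypothalamus.

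The amygdala libraries held 19215519 to 26033631 gene counts and the hippocampal ones 19322280 to 27799007. Kdm5c summed over the gene was 1145 to 1434 normalised counts in the Kdm5c-KO libraries and 1228 to 2026 in WT, and Kmt2a was 3289 to 6647 in Kmt2a-HET and 2163 to 5919 in WT, sums that include exons outside the deletions and so do not check the genotype. Normalised counts are counts divided by DESeq2 size factors within a region. Marker sums varied widely between pieces of the same region. In the amygdala, 10 striatal markers summed to 9282 to 69202 normalised counts and 12 hypothalamic markers to 1126 to 5965, with every hypothalamic marker above 10 in at least 1 library. In the hippocampus the hypothalamic sum was 84 to 345 in 15 of the 16 libraries and 819 in Kdm5c-KO replicate 1, which also had the highest striatal sum (15830 against 3789 to 5248) and the highest choroid plexus sum of 12 markers (107648 against 998 to 30009). WT replicate 1 of the amygdala had the lowest hypothalamic sum. The sum of 12 dentate gyrus and pyramidal cell markers was 10802 to 28541 in the hippocampus and 6016 to 9349 in the amygdala, which separated the regions. The sum of 5 amygdala markers was 3300 to 4697 and 4608 to 7678 in that order, ranges that overlapped. Thalamic markers summed to 1478 to 4305 in the hippocampus and to 2723 to 12081 in the amygdala. Of 10 pituitary markers, 6 stayed below 10 normalised counts in every amygdala library and 9 in every hippocampal library, Pou1f1 among them in both, with sums of 13 to 143 and 4 to 46.

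Promoter windows, 250 bases before to 50 after the start, were given by RefSeq on GRCm38.p6 for 35 of the 44 genes. The cAMP response element TGACGTCA, a palindrome bound by CREB family factors, lay before the start in 5 of these 35 genes (14.3%) and in 1.55% of all 32851 windows. The 5 sites are shown with their surroundings because 3 of the genes, Sst, Scg2 and Chgb, are among the most abundant members. Each is printed 5′ to 3′ on the strand of its gene with the motif in capitals, and each lies between 44 and 112 bases before the RefSeq start.
Sst (chr16:23890874-23890903, minus strand): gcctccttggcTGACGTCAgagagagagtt
Scg2 (chr1:79440076-79440105, minus strand): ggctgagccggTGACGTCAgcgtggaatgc
Chgb (chr2:132781559-132781588, plus strand): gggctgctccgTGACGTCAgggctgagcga
Cartpt (chr13:99900777-99900806, minus strand): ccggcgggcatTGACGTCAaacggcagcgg
Ucn (chr5:31138921-31138950, minus strand): atgttcttcgcTGACGTCAgtcggagctgt
These 5 genes did not share a pattern between the regions, as described below: Chgb was higher in the hippocampus, Scg2, Cartpt and Ucn were lower there, and Sst was called in 1 genotype.

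The TATA box letters TATAAA on the gene strand lay before the start in 11 of the 35 genes (31.4%) and in 7.59% of all windows. The sites of Hcrt and Pmch are shown because these genes rose and fell together across amygdala libraries, and those of Pomc, Lhb and Agt because their values differed between genotypes in single libraries or groups. Here the capitals mark TATAAA.
Hcrt (chr11:100762947-100762976, minus strand): acctcagagcatTATAAAcccctggcccct
Pmch (chr10:88091033-88091062, plus strand): agacagaaagtaTATAAAggtggggatcat
Pomc (chr12:3954908-3954937, plus strand): caaccctgcaagTATAAAagaagagagaag
Lhb (chr7:45420903-45420932, plus strand): acaacccgcaggTATAAAgccaggtgccca
Agt (chr8:124569719-124569748, minus strand): ccaccccttgagTATAAAtaagcctgcttg

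Compared per length, Sst, which encodes the inhibitory peptide somatostatin, had the highest level of the 44 genes in WT amygdala, at 241 ± 111 FPKM (mean ± SD, n = 4). FPKM scales counts to exon length and to the total gene counts of the library. Penk, the enkephalin precursor, followed with 169 ± 52.3 FPKM, then the granin Vgf with 164 ± 45.5 FPKM, and Scg2 and Chgb, granins that pack dense-core vesicles, with 134 ± 28.2 and 134 ± 36.0 FPKM. These neighbours in the order did not differ beyond their spread. In WT hippocampus Cck, the cholecystokinin precursor, and Chgb led with 223 ± 40.7 and 223 ± 42.1 FPKM, ahead of Sst with 179 ± 36.1 FPKM and Vgf with 120 ± 24.1 FPKM. With the longest transcript as length, Cck was at 363 FPKM there and ranked first. Scg2 (57.0 ± 3.74 FPKM) and Chga (41.8 ± 2.44 FPKM) came next, and Penk was at 12.6 ± 2.59 FPKM. In the amygdala 28 members exceeded 10 normalised counts in all 16 libraries and 2 (Calcb and Rln3) in none. In the hippocampus 22 exceeded 10 in every library and 8 in none.

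**Figure D1:**
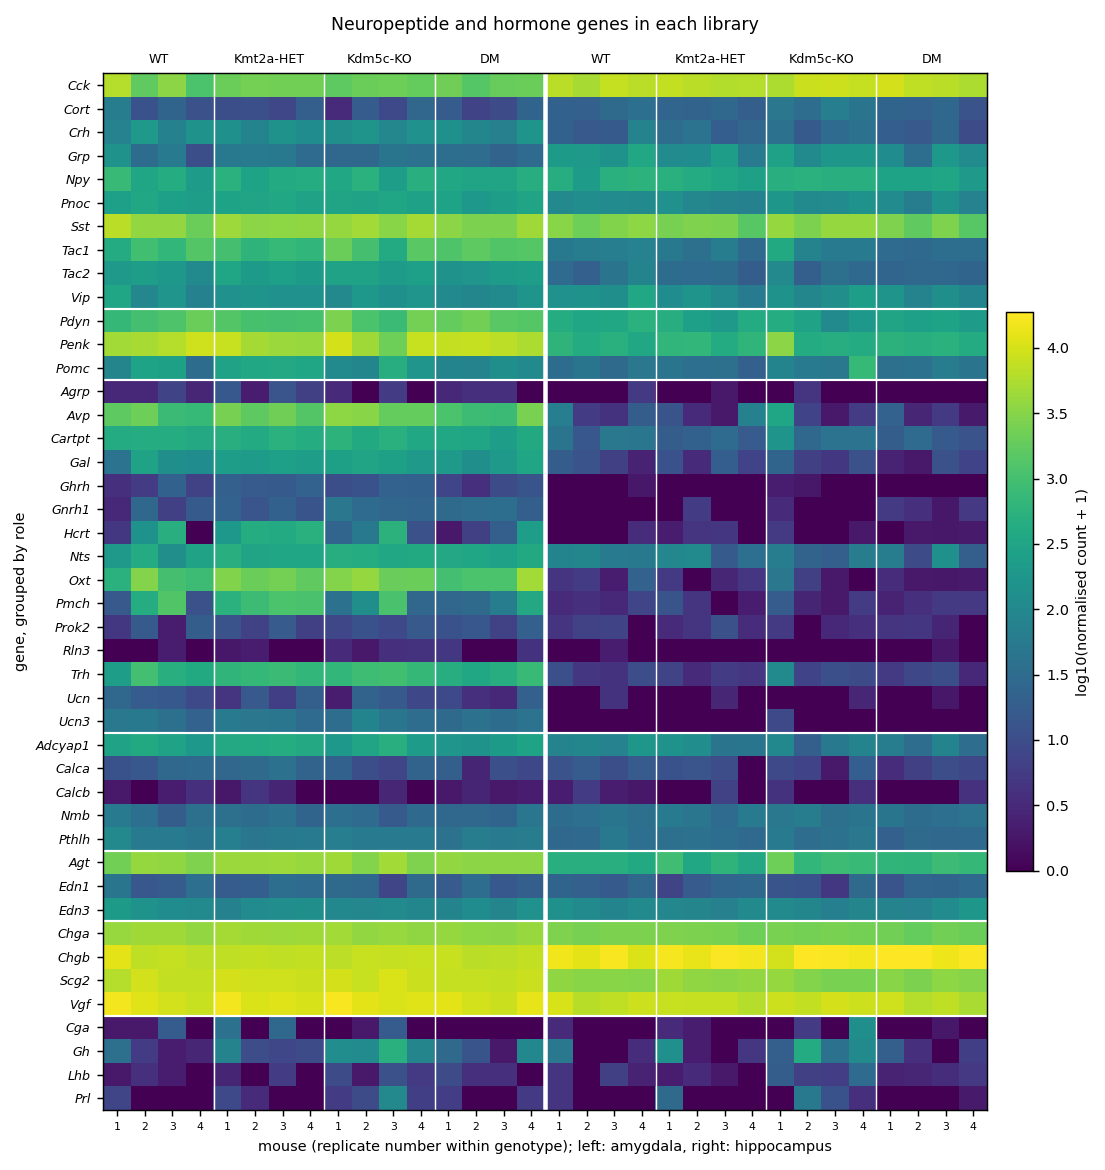
Normalised counts (colour, log10 of the count plus 1) of the 44 genes in rows, grouped by role, in the 32 libraries in columns. Of the 15 hypothalamic peptides, 12 were called lower in the hippocampus in WT, while Rln3 was below 10 in every library and Agrp in all but 2, and Kdm5c-KO replicates 1 and 4 of the hippocampus stood out for Penk and Pomc.

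The regions differed for most of the genes. With a 32-library DESeq2 fit and a call at an adjusted p below 0.1, 24 of 42 members tested in WT were lower in the hippocampus than in the amygdala, against 11.3% of all genes tested, and 3 were higher, against 9.89%. In Kmt2a-HET 28 were lower (background 15.2%) and 3 higher (background 15.3%). Kdm5c-KO gave 24 lower (background 12%) and 5 higher (background 11.9%), and DM gave 25 lower (background 13.8%) and 3 higher (background 13.3%). A total of 22 members were called lower in the hippocampus in all 4 genotypes, 3 were called higher in all 4, 10 were called in no genotype, and none was called in opposite directions. The median log2 fold change of the members tested, hippocampus against amygdala, was -1.35 (WT), -1.86 (Kmt2a-HET), -1.28 (Kdm5c-KO) and -2.23 (DM), where the median of all genes lay between -0.02 and 0.00. With genes at 0 in every hippocampal library of a genotype set to their bound, the DM median was -1.88 and the other medians were unchanged. Hypothalamic peptides were the largest group among the calls, with 12 of the 27 in WT, and also the largest group of the list, with 15 of the 44 genes. Scaling to the ERCC spike-ins raised the median of all genes by 0.417 to 0.889 on the log2 scale and left 17 calls for WT, 18 for Kmt2a-HET, 20 for Kdm5c-KO and 21 for DM, and the Kdm5c-KO calls then split into 6 higher and 14 lower. Of the 22 members called lower in all 4 genotypes, 11 were so called under ERCC scaling (Avp, Cartpt, Gal, Gnrh1, Hcrt, Oxt, Penk, Pmch, Tac1, Trh and Ucn3), and Adcyap1, Agt, Chga, Crh, Ghrh, Nts, Pdyn, Pnoc, Scg2, Tac2 and Ucn lost a call in at least 1 genotype. Cck, Chgb and Grp were called higher in all 4 under both scalings. Without Kdm5c-KO replicate 3 the calls of Hcrt and Pmch in that genotype were lost, as was that of Hcrt in DM without DM replicate 4, those of Adcyap1 and Nts in WT without WT replicate 2 and that of Grp in Kmt2a-HET without Kmt2a-HET replicate 3.

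**Figure D2:**
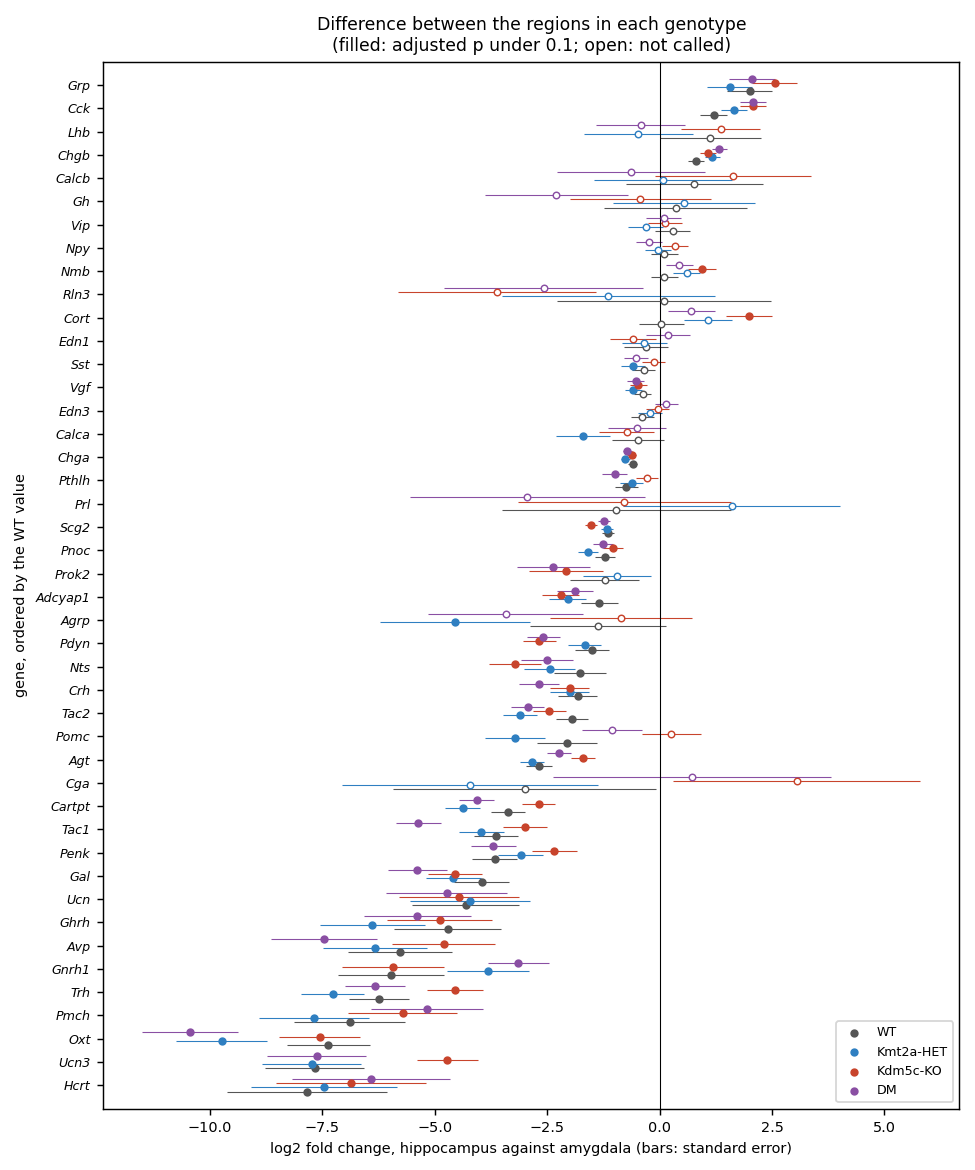
Log2 fold change, hippocampus against amygdala, with its standard error for each of the 44 genes in each genotype, filled where the adjusted p was below 0.1. Hcrt, Oxt, Pmch and Trh lay among the lowest in WT, the point of Ucn3 being a fitted value over a hippocampus at 0 and no measured size, and Grp, Cck and Chgb were called higher in the hippocampus in all 4 genotypes.

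Of the 15 hypothalamic peptide genes, 12 were called lower in the hippocampus in WT and 13 in each mutant genotype. Scaled within each region, the hypothalamic marker sum was 1126 or more per amygdala library, against 819 or less per hippocampal library. The part of neighbouring hypothalamic tissue in these region differences was not tested. Unless stated otherwise, the values in this and the next paragraphs on the regions were scaled over all 32 libraries. Hcrt, the orexin precursor that promotes wakefulness, was at 3.79, 144, 489 and 0 normalised counts in the 4 WT amygdala libraries and at 0, 0, 0 and 2.62 in the hippocampal libraries of the same mice, so the groups overlapped. Its log2 fold change was -7.84 (SE 1.78, adjusted p = 0.000164, DESeq2), with -5.76 (adjusted p = 0.0268) without WT replicate 3 and a ratio of at least 70.8-fold without WT replicate 4, where the hippocampal libraries were all at 0 and 3 counts per library served as the floor. The hippocampal libraries held 3 counts together, and the amygdala to hippocampus ratio of summed counts was 196 with a 95% exact interval of 66.7 to 953, which covers counting error only. Pmch, which promotes feeding and sleep, was at 14.2, 434, 1280 and 10.2 in the amygdala, with 2.22 to 6.98 for the hippocampal libraries (log2 fold change -6.89, SE 1.23, adjusted p = 7e-07). Over the fits without 1 mouse the Pmch change was -7.84 to -5.21 (adjusted p of at most 0.0025, DESeq2). The same WT mice, replicates 2 and 3, had the high values of both genes.

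Oxt, the oxytocin gene, was at 515, 2909, 1009 and 822 normalised counts in WT amygdala and at 3.51, 4.98, 1.11 and 21.8 in WT hippocampus (log2 fold change -7.36, SE 0.92, adjusted p = 1.57e-13). Every amygdala library lay above every hippocampal library, and over the fits without 1 mouse the Oxt change was -8.84 to -6.45. Trh, which encodes thyrotropin-releasing hormone, was at 236, 966, 481 and 384 in the amygdala, against 10.5, 3.99, 3.33 and 9.6 in the hippocampus (log2 fold change -6.23, SE 0.67, adjusted p = 2.39e-18). Ucn3, a ligand of the CRF type 2 receptor made in the hypothalamus and medial amygdala, was at 47.4, 50, 35.6 and 20.4 in the amygdala and at 0 in all 4 hippocampal libraries, at least 12.8-fold lower with 3 counts per library as the floor. Gnrh1, the gonadotropin-releasing hormone gene, was also at 0 in all 4 WT hippocampal libraries and at 1.9, 25.5, 5.24 and 14.8 in the amygdala, at least 3.96-fold lower in the hippocampus and at least 2.44-fold without WT replicate 2. Avp, Gal, Cartpt, Nts, Ghrh and Ucn were called lower in the hippocampus in all 4 genotypes, Prok2 in 2 genotypes and Agrp in 1, and Rln3 was called in none. The Agrp call, in Kmt2a-HET, was lost with the mouse as a block (adjusted p = 0.141). The Prok2 call in Kdm5c-KO was lost without Kdm5c-KO replicate 2, 3 or 4, and that in DM without DM replicate 4. In the mutants Ucn3 was at 55, 47.2, 45.5 and 28.8 (Kmt2a-HET), 31.9, 80.6, 46.2 and 31.8 (Kdm5c-KO) and 28.5, 38.8, 29.8 and 40.4 (DM) in the amygdala. All mutant hippocampal libraries were at 0 for Ucn3 except Kdm5c-KO replicate 1 (7.86).

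All 3 opioid precursors were lower in WT hippocampus. The WT striatal marker sum, scaled within each region, spanned 12645 to 68573 for amygdala against 3823 to 5086 for hippocampus. The part of striatal tissue in the region differences of Penk, Pdyn and Tac1 was not tested. Penk was at 4637, 5094, 6123 and 8906 normalised counts in the amygdala and at 616, 440, 523 and 380 in the hippocampus (log2 fold change -3.66, SE 0.50, adjusted p = 1.46e-11). Pdyn, the dynorphin precursor, differed by -1.5 (SE 0.37, adjusted p = 0.000735) and was called in all 4 genotypes. Pomc, the precursor of ACTH, melanocortins and beta-endorphin, differed by -2.06 in WT (SE 0.67, adjusted p = 0.0155) and by -3.21 in Kmt2a-HET (SE 0.67, adjusted p = 2e-05), with 0.26 (SE 0.66) in Kdm5c-KO and -1.05 (SE 0.67) in DM, neither of them called. The WT call was lost without WT replicate 2 (adjusted p = 0.149) or 3 (adjusted p = 0.161), and the Kdm5c-KO value turned to -1.66 (adjusted p = 0.0148) without Kdm5c-KO replicate 4 and to -0.39 with the mouse as a block.

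The 10 genes listed as interneuron peptides, of which Tac1 is also expressed by medium spiny neurons of the striatum, were split. Tac1, Tac2, Pnoc and Crh, encoding substance P, neurokinin B, nociceptin and corticotropin-releasing hormone, were lower in the hippocampus in every genotype, with WT log2 fold changes of -3.64, -1.95, -1.21 and -1.82. Cck and Grp, which encodes gastrin-releasing peptide, were higher there in every genotype. Cck was at 6049, 1662, 3229 and 1103 normalised counts in WT amygdala and at 6975, 5315, 8227 and 7057 in WT hippocampus (log2 fold change 1.2, SE 0.29, adjusted p = 0.000387). WT replicate 1 of the amygdala reached into the hippocampal range, and without that mouse the WT change was 1.78. Grp was at 145, 30.2, 52.4 and 9.27 in the amygdala and at 217, 215, 155 and 360 in the hippocampus, where all 4 values were higher (log2 fold change 2.00, SE 0.50, adjusted p = 0.000705). The Grp change was 3.0 without WT replicate 1 and 1.37 (adjusted p = 0.0378) without WT replicate 4. Npy and Vip were called in no genotype, Sst was called lower in Kmt2a-HET (-0.59, SE 0.26, adjusted p = 0.082) and Cort higher in Kdm5c-KO. The Sst call was lost with the mouse as a block (adjusted p = 0.143).

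The mutant libraries did not overlap between the regions for Cck and Grp. Amygdala Cck was at 1992, 2328, 2191 and 2216 normalised counts (Kmt2a-HET), 1581, 1999, 2108 and 1800 (Kdm5c-KO) and 2094, 1328, 1798 and 1948 (DM). Hippocampal Cck was at 7843, 6853, 6097 and 6526, then 5696, 8774, 9036 and 8111, and 10105, 7398, 6982 and 5857 for DM, so every hippocampal library was above every amygdala library of its genotype. Grp was at 50.9, 54.8, 49.8 and 28.8 (Kmt2a-HET), 25.1, 25.6, 43.4 and 36.9 (Kdm5c-KO) and 33.2, 31.8, 21.1 and 29 (DM) for amygdala. The hippocampal values of Grp were 119, 121, 245 and 58.6 (Kmt2a-HET), 287, 111, 189 and 187 (Kdm5c-KO) and 125, 35.4, 197 and 119 (DM), and the smallest gap between the regions was that of DM.

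Among the granins, Chgb was the 1 member of its group that was higher in the hippocampus, with 11784, 7022, 7592 and 6671 normalised counts in WT amygdala and 15833, 13148, 17630 and 11551 in WT hippocampus (log2 fold change 0.81, SE 0.17, adjusted p = 2.35e-05). The mutant amygdala libraries were at 7069, 7392, 7037 and 7345 (Kmt2a-HET), 6839, 7757, 7738 and 7934 (Kdm5c-KO) and 7964, 6523, 6751 and 7240 (DM). The hippocampal ones of Chgb were at 16908, 13845, 18016 and 15994, then 10028, 19417, 18310 and 16157, and 19252, 19195, 14751 and 18204 in that order, all above the mutant amygdala values. Scg2 (log2 fold change -1.14, SE 0.13, adjusted p = 2.64e-15) and Chga (-0.59, SE 0.10, adjusted p = 5.58e-08) were lower, though Chga turned to 0.14 in WT and 0.27 in Kdm5c-KO under ERCC scaling. Vgf, whose product is a source of several secreted peptides, was called lower in the 3 mutant genotypes and turned to 0.42 in Kdm5c-KO under ERCC scaling. Each Vgf call was lost on leaving out single mice: Kmt2a-HET replicate 1, Kdm5c-KO replicate 1, 2 or 4, and DM replicate 4. Agt, the angiotensinogen gene, which astrocytes express in the brain, was at 2181 to 3876 in WT amygdala and 408 to 521 in WT hippocampus (log2 fold change -2.68, SE 0.28, adjusted p = 9.21e-20). Edn1 and Edn3, encoding endothelins, were called in no genotype. Adcyap1, which encodes PACAP, was lower in all 4 genotypes (-1.34 in WT, SE 0.41, adjusted p = 0.00793), and Pthlh was lower in 3, with a WT value of -0.74 that became 0.05 under ERCC scaling and a Kmt2a-HET call that was lost with the mouse as a block (adjusted p = 0.105). Calca, which gives rise to calcitonin and CGRP, was called lower in Kmt2a-HET and Nmb, the neuromedin B gene, higher in Kdm5c-KO. The Calca call was lost without Kmt2a-HET replicate 3 or 4, and the Nmb call without Kdm5c-KO replicate 2. The 4 pituitary hormones were called in no genotype.

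Receptors and processing enzymes of these peptides were read from lists of 55 and 13 genes. In WT, 23 of 53 receptor genes tested were lower in the hippocampus (background 11.3% of all genes) and 10 were higher (background 9.89%). The receptors with the largest WT changes to lower values were Cckar, a cholecystokinin receptor (-8.09, SE 1.09), Sstr5, a somatostatin receptor (-5.13, SE 0.70), and Mc3r, a melanocortin receptor (-5.02, SE 0.90). Cckar was at 21.8, 136, 100 and 92.7 normalised counts in WT amygdala and 0, 0.959, 0 and 0 in WT hippocampus on the within-region scale. Those with the largest changes to higher values were the vasopressin receptor gene Avpr1b (4.27, SE 1.30, a gene near 0 whose regions overlapped), the somatostatin receptor gene Sstr4 (2.49, SE 0.24) and the relaxin receptor gene Rxfp1 (1.76, SE 0.60). Avpr1b was at 2.25, 10.5, 22.7 and 0.849 in WT hippocampus and 1.98, 0, 0 and 0 in WT amygdala, and Sstr4 was at 421 to 753 in WT hippocampus and 71.2 to 126 in WT amygdala. Of the processing genes, Qpct and Ece1 were lower in the hippocampus (log2 fold changes -1.02 and -0.42) and Cpe, Pcsk2 and Cadps2 were higher (0.30, 0.37 and 0.44).

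Within the amygdala, several peptides followed each other or markers of neighbouring tissue from library to library. A total of 12 relations were computed on log2(normalised count + 1) over libraries of 1 region, chosen after the values had been seen. Their permutation p-values, adjusted over these 12 alone, take no account of that choice. They describe the pairs shown and are no independent evidence of a relation. Hcrt and Pmch, both made by neurons of the lateral hypothalamus, correlated with Pearson r = 0.972 and Spearman rho = 0.941 (permutation p = 1e-05 for each, the smallest that 100000 permutations can give, adjusted 2.4e-05 and 4e-05, n = 16), and r was 0.967 without the 2 most extreme libraries. For Hcrt the WT libraries had 3.96, 149, 503 and 0 normalised counts, the Kmt2a-HET ones 189, 447, 401 and 519, the Kdm5c-KO ones 23.7, 52.9, 549 and 10.6 and the DM ones 0.984, 5.47, 18.9 and 234. Pmch was at 14.8, 447, 1316 and 10.5, then 538, 845, 1136 and 1106, then 38.0, 129, 1120 and 24.3, and 24.6, 29.2, 63.7 and 383 in the same order. The Kmt2a-HET libraries were the only group without a low value of either gene.

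The same was seen for Avp and Oxt, the magnocellular hormones, with r = 0.793 and rho = 0.879 (permutation p = 0.00027 and 2e-05, adjusted 0.00054 and 4.8e-05, n = 16), and r = 0.953 without the 2 most extreme libraries. WT had 1606, 2121, 816 and 736 normalised counts of Avp, Kmt2a-HET had 2478, 1656, 2196 and 1358, Kdm5c-KO had 3512, 3250, 1823 and 1808 and DM had 1129, 851, 813 and 2607. For Oxt the values were 537, 2991, 1038 and 847, then 2851, 2081, 2346 and 1698, then 3006, 3985, 1950 and 2045, and 970, 1167, 1168 and 4796 in DM, so DM replicate 4 had the highest value of all libraries. Trh followed the hypothalamic marker sum with r = 0.890 and rho = 0.894 (permutation p = 1e-05 and 2e-05, adjusted 2.4e-05 and 4.8e-05), and Hcrt with r = 0.680 and rho = 0.797 (permutation p = 0.0014 and 0.00044, adjusted 0.0025 and 0.00075).

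Penk, Tac1 and Pdyn, which medium spiny neurons of the striatum express, followed the striatal marker sum in the amygdala, with r = 0.921, 0.883 and 0.891 and rho = 0.929, 0.891 and 0.926 (n = 16, permutation p between 1e-05 and 3e-05, adjusted p of at most 6e-05). Penk ranged from 2153 in Kdm5c-KO replicate 3, which had the lowest striatal sum (9282), to 10010 in Kdm5c-KO replicate 1 (striatal sum 58057). Cck went the other way, with r = -0.627 and rho = -0.729 (permutation p = 0.01 and 0.0019, adjusted 0.015 and 0.0029), and r = -0.584 without the 2 most extreme libraries. Grp and Sst gave no relation that held: Grp against the striatal sum had r = -0.577 and rho = -0.45 (permutation p = 0.021 and 0.081, adjusted 0.026 and 0.11), and the r of -0.631 between Sst and the interneuron marker sum (permutation p = 0.013, adjusted 0.018) became 0.00532 without WT replicates 1 and 4. In the hippocampus Penk and the striatal sum had r = 0.878 and rho = 0.0147 (permutation p = 0.049 and 0.96, adjusted 0.053 and 0.96), and r was -0.268 without Kdm5c-KO replicate 1 and DM replicate 2, so that relation rested on those libraries. Penk and Tac1 in the hippocampus likewise had r = 0.673 and rho = -0.344 (permutation p = 0.063 and 0.19, adjusted 0.063 and 0.23), and r was -0.594 without the same libraries.

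**Figure D3:**
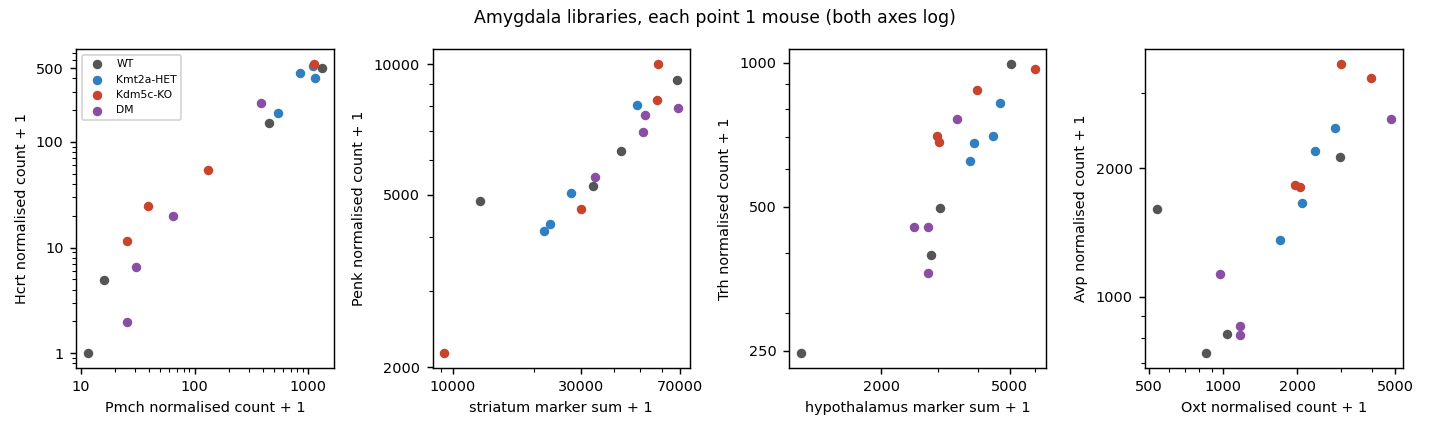
Normalised counts plus 1 (log axes) of Hcrt against Pmch, Penk against the striatal marker sum, Trh against the hypothalamic marker sum and Avp against Oxt, each point being 1 amygdala library coloured by genotype. In each panel the libraries of the 4 genotypes intermingled, and WT replicate 1 had the second lowest striatal sum (12645) and the lowest hypothalamic sum (1126).

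Against these spreads, few peptide genes differed between genotypes. In Kdm5c-KO against WT, 1 of 40 members tested in the amygdala was called (background 0.755%), which was Gh, and 1 of 30 in the hippocampus (background 1.01%), which was Agt. At an unadjusted p below 0.05 there were 9 of the 40 and 4 of the 30, where all genes tested gave 5.69% for amygdala and 8.18% for hippocampus, and edgeR called 0 in both regions. The 9 in the amygdala were Gh, Avp (0.98), Gal (0.87), Gnrh1 (1.37), Nts (0.67), Scg2 (0.26), Tac2 (0.54) and Trh (0.6), each with a positive log2 fold change, and Edn3 with -0.63. The hypothalamic marker sum was 3019, 3956, 5965 and 2973 in the Kdm5c-KO amygdala against 1126, 5050, 3040 and 2854 for WT, and its part in these values was not tested. Without WT replicate 2, which had the highest WT values of Gal, Nts, Oxt and Trh, 6 members other than Gh were called in the amygdala: Gal, Gnrh1, Nts, Oxt, Scg2 and Trh. The hippocampal test gave no p for Avp, Cga, Penk, Pomc, Tac1 and Trh, because DESeq2 set their p aside for a single extreme count, and no adjusted p for another 8 members of low count. The median log2 fold change of the members tested was 0.07 for amygdala and 0.14 for hippocampus, with -0.01 and 0.00 over all genes.

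Gh (chr11:106300271-106301865, minus strand), the growth hormone gene, was at 36.6, 4.85, 1.08 and 1.91 normalised counts in WT amygdala and at 125, 113, 523 and 86.7 in Kdm5c-KO. All 4 Kdm5c-KO libraries lay above all 4 WT libraries. The log2 fold change was 4.25 (SE 1.23, adjusted p = 0.08, DESeq2), and without Kdm5c-KO replicate 3 it was 3.28 (adjusted p = 0.512). Kmt2a-HET had 80.7, 9.03, 7.09 and 8.34, which overlapped WT but lay below every Kdm5c-KO library, and DM had 29.5, 11.8, 0.995 and 99.1, which overlapped both WT and Kdm5c-KO. Hippocampal Gh was at 50.6, 0, 0 and 2.55 for WT, 138, 1.13, 0 and 3.68 for Kmt2a-HET, 18.5, 426, 37.6 and 107 for Kdm5c-KO and 18.6, 2.78, 0 and 5.21 for DM, with a Kdm5c-KO change of 3.47 (SE 1.99, adjusted p = 0.70). Without WT replicate 1, which held the 50.6, hippocampal Gh was called (7.39, SE 2.13, adjusted p = 0.0721), and without Kdm5c-KO replicate 2, which held the 426, the change was 2.04 (adjusted p = 0.844). Replicate 1 had the highest value of its genotype in both regions in WT and in Kmt2a-HET. With the replicate number as a block in DESeq2, hippocampal Gh was called in Kdm5c-KO against WT (7.07, SE 1.52, adjusted p = 0.0016). It was then also called in DM against Kdm5c-KO (-6.55, adjusted p = 0.00988), and in neither with that block in edgeR. The call in the amygdala was lost with edgeR (adjusted p = 0.22), with ERCC scaling (adjusted p = 0.719) and on leaving out any of 9 of the 16 mice. Over all 16 such fits the log2 fold change was 3.28 to 6.33.

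Prl, the prolactin gene, exceeded 10 normalised counts in 1 amygdala and 3 hippocampal libraries. It was at 103 normalised counts in Kdm5c-KO replicate 3 of the amygdala and at 8.82 or less in all other amygdala libraries, with 6.92 as the highest WT value, 7.81 in Kmt2a-HET and 4.92 in DM. In the hippocampus it was at 0, 53.1, 10.9 and 2.84 (Kdm5c-KO), 28.5, 0, 0 and 0 (Kmt2a-HET), 3.37, 0, 0 and 0 (WT) and 0, 0, 0 and 1.04 (DM). Cga, the shared alpha subunit of the glycoprotein hormones, was at 133 in Kdm5c-KO replicate 4 of the hippocampus and at 4.5 or less in the other hippocampal libraries. In the amygdala Cga exceeded 10 in 4 libraries, with 39.0 and 26.6 in Kmt2a-HET replicates 1 and 3, 16.2 in WT replicate 3 and 16.4 in Kdm5c-KO replicate 3, and was below 1 in the others. The pituitary marker sum of the hippocampus was also highest in Kdm5c-KO replicate 4 (46, against 29 or less in the others). In the amygdala the highest sum was in Kdm5c-KO replicate 3 (143, against 137 or less). Other libraries went the other way. Kmt2a-HET replicate 3 of the amygdala had a sum of 137 with Gh at 7.09 and Prl at 0. WT replicate 1 of the amygdala had the lowest sum (13) and the highest WT value of Gh (36.6). In the hippocampus the sum was 21 in Kdm5c-KO replicate 2, which had the highest Gh (426) and Prl (53.1). By genotype the amygdala sum was 13 to 115 (WT), 73 to 137 (Kmt2a-HET), 51 to 143 (Kdm5c-KO) and 41 to 50 (DM). The part of pituitary tissue in these values was not tested.

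Lhb (chr7:45420820-45421897, plus strand), the luteinizing hormone beta subunit, overlaps Ruvbl2 on the opposite strand and was low everywhere. It was at 3.37, 0, 5.41 and 1.7 normalised counts in WT hippocampus and 17.4, 5.4, 4.95 and 30.3 in Kdm5c-KO, so that the groups overlapped. The log2 fold change was 2.5 (SE 0.87, adjusted p = 0.214), with 1.84 when Kdm5c-KO replicate 4, which also had the Cga and Pomc maxima, was left out. DM had 1.69, 1.85, 2.63 and 4.17 and Kmt2a-HET 1.1, 2.26, 0.932 and 0. Amygdala values of Lhb were 0.989, 2.91, 1.08 and 0 (WT), 1.73, 0, 4.43 and 0 (Kmt2a-HET), 8.31, 0.98, 10.6 and 4.23 (Kdm5c-KO) and 8.86, 2.73, 2.98 and 0 (DM), with no adjusted p for Kdm5c-KO against WT.

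Pomc (chr12:3954951-3960642, plus strand) was at 31.5, 44.1, 29.2 and 48.4 normalised counts in WT hippocampus and at 82.5, 58.6, 50.4 and 729 in Kdm5c-KO. All 4 Kdm5c-KO values were above the WT values, and replicate 4 was 8.84 times the next highest library of the region. The log2 fold change was 2.59 (SE 0.71) with no p from the main test and 0.72 (adjusted p = 0.409, DESeq2) without that library. With the filter for extreme counts off, Pomc was called (adjusted p = 0.0433), and edgeR gave an adjusted p of 0.219. Kmt2a-HET was at 42.8, 35.1, 37.3 and 19.6 and DM at 36.4, 38.9, 60.4 and 43.8. Amygdala values of Pomc were 88.0, 298, 263 and 31.6 (WT), 288, 343, 373 and 322 (Kmt2a-HET), 104, 90.2, 449 and 169 (Kdm5c-KO) and 82.7, 80.2, 131 and 106 (DM), and no comparison with WT was called. The change in Kdm5c-KO was 0.26 (SE 0.61) and turned to -0.49 without Kdm5c-KO replicate 3, to -0.09 without WT replicate 4 and to -0.35 under ERCC scaling.

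The transcript table split Pomc further. Transcript Pomc-201 had estimated counts of 324.2 in Kdm5c-KO replicate 4 of the hippocampus, 21.4 in Kdm5c-KO replicate 2 and 12.4 in Kmt2a-HET replicate 1, and 0 in the other 13 hippocampal libraries. These 3 libraries also had the 3 highest Gh values of the region, 107, 426 and 138 normalised counts in that order. Pomc-202 was at 442.1 in Kdm5c-KO replicate 4 and 11 to 76 in the other hippocampal libraries. In the amygdala Pomc-201 was at 0 in 3 libraries and reached 261.3 in Kmt2a-HET replicate 3.

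Trh (chr6:92242061-92244650, minus strand) was at 10.1, 3.83, 3.24 and 9.33 normalised counts in WT hippocampus. Kmt2a-HET had 6.58, 2.26, 4.66 and 3.68, Kdm5c-KO 105, 6.31, 9.89 and 8.52, and DM 4.23, 7.4, 9.64 and 2.09. Kdm5c-KO replicate 1 alone was high, and the other 3 Kdm5c-KO libraries lay within the range of WT. The log2 fold change of 2.28 (SE 0.82, no p from the main test) became 0.31 (adjusted p = 1) without that library. Amygdala Trh was at 246, 993, 495 and 396 (WT), 623, 702, 824 and 678 (Kmt2a-HET), 680, 874, 967 and 700 (Kdm5c-KO) and 452, 362, 453 and 762 (DM). The amygdala change in Kdm5c-KO was 0.60 (SE 0.30, adjusted p = 0.878) and 1.09 (adjusted p = 0.00273) without WT replicate 2.

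Agt (chr8:124556534-124569706, minus strand) was at 483, 501, 489 and 396 normalised counts in WT hippocampus and at 2120, 659, 845 and 762 in Kdm5c-KO. Every Kdm5c-KO library exceeded every WT library. The log2 fold change was 1.23 (SE 0.37, adjusted p = 0.0948) and 0.69 (adjusted p = 0.338) without Kdm5c-KO replicate 1, the library with the high striatal, hypothalamic and choroid plexus sums. The choroid plexus sum was 998 to 25945 in WT hippocampus and 1483 to 107648 in Kdm5c-KO, and its part in the Agt values was not tested. The call was lost on leaving out any of 11 of the 16 mice. Agt itself was higher in the amygdala than in the hippocampus in every genotype. DM was at 634, 588, 853 and 701, also above all WT values (0.57, SE 0.37, adjusted p = 0.775), and Kmt2a-HET at 897, 364, 606 and 380. Amygdala values of Agt were 2274, 3986, 3658 and 2820 (WT), 4244, 4322, 4353 and 4140 (Kmt2a-HET), 4651, 3003, 4755 and 2772 (Kdm5c-KO) and 3749, 3337, 3431 and 3407 (DM), with no call. The Kmt2a-HET libraries all exceeded the WT libraries, by 0.42 on the log2 scale (SE 0.18, unadjusted p = 0.0198, adjusted p = 1, DESeq2). Pomc, Trh, Agt and Lhb were singled out by the study on these samples, so their direction here is not independent evidence.

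**Figure D4:**
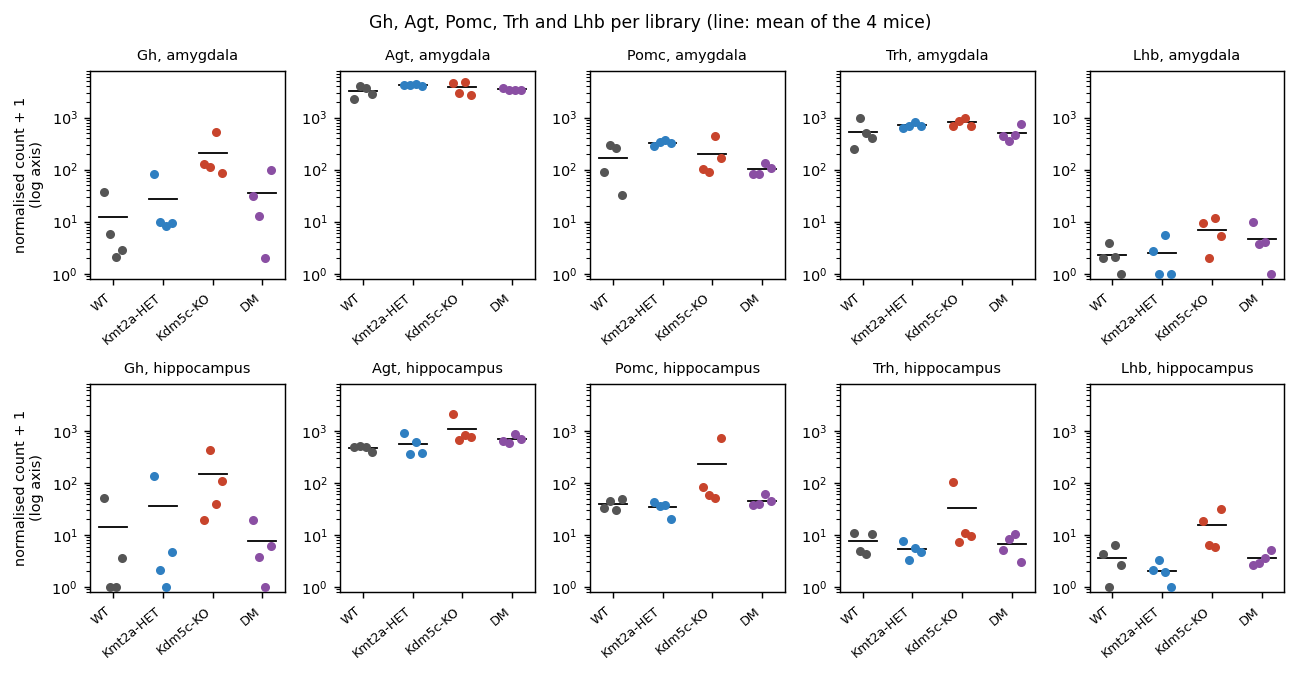
Normalised counts plus 1 (log axis) of Gh, Agt, Pomc, Trh and Lhb in each library by genotype, amygdala above and hippocampus below, with a line at the mean of 4 mice. In the hippocampus of Kdm5c-KO, Agt and Trh had 1 high library (replicate 1) and Pomc another (replicate 4).

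Hippocampal Kdm5c-KO replicate 1 was the highest library of the region for 12 of the 36 members that exceeded 10 normalised counts anywhere, and by at least 3-fold over the next library for 5 of them. These were Tac1 (394, next 79.3), Penk (3322, next 673), Trh (105), Cartpt (163, next 49.8) and Avp (337, next 74.8). In the amygdala, WT replicate 1 was likewise the highest library for 12 of 42 members, and for 0 of them by 3-fold. The share of all genes for which a library was the highest was not computed. Hippocampal Oxt was at 48.9 in Kdm5c-KO replicate 1 and at 21.2 or less elsewhere, while Hcrt was at 4.34 in that replicate and so near 0. Elsewhere in the hippocampus Avp was at 65.2, 4.79, 3.24 and 17.0 (WT), 12.1, 2.26, 0.932 and 74.8 (Kmt2a-HET), 6.31, 0.989 and 4.73 (the other 3 Kdm5c-KO mice) and 21.2, 1.85, 4.38 and 1.04 (DM). Oxt there was at 3.37, 4.79, 1.08 and 21.2 (WT), 4.39, 0, 1.86 and 3.68 (Kmt2a-HET), 5.4, 0.989 and 0 (the other 3 Kdm5c-KO mice) and 2.54, 0.925, 0.876 and 1.04 (DM). Pmch exceeded 10 in 2 hippocampal libraries, Kdm5c-KO replicate 1 (16.3) and Kmt2a-HET replicate 1 (12.1). With Kdm5c-KO replicates 1 and 4 left out, a choice made after the values were seen, no member was called against WT in the hippocampus by DESeq2, and Agt, Pomc, Trh and Lhb had log2 fold changes of 0.69, 0.50, 0.28 and 1.02. The part of neighbouring tissue in these values was not tested.

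Kmt2a-HET against WT gave 0 calls among 43 members tested in the amygdala (background 0.00988%) and 0 among 38 in the hippocampus (background 0.0%) with DESeq2, and 0 with edgeR. Without WT replicate 2, 3 were called in the amygdala (Gal, Nts and Trh). The hypothalamic marker sum was 3761 to 4656 in the Kmt2a-HET amygdala and 1126, 5050, 3040 and 2854 in WT, and its part in these values was not tested. At an unadjusted p below 0.05 the shares of all genes tested were 3.05% for amygdala and 2.39% for hippocampus. There were 4 such members in the amygdala, Agt, Gal, Scg2 and Tac2, with log2 fold changes of 0.42, 0.73, 0.25 and 0.47, and 1 in the hippocampus, Vip, with -0.78 (SE 0.37). Agrp, which encodes the orexigenic agouti-related peptide, exceeded 10 normalised counts in 2 libraries, Kmt2a-HET replicates 1 and 3 of the amygdala (13.9 and 12.4). The WT amygdala had 1.98, 1.94, 6.47 and 1.91, the other Kmt2a-HET mice 1.13 and 5.56, Kdm5c-KO 2.37, 0, 4.83 and 0, and DM 1.97, 2.73, 2.98 and 0.

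DM against WT gave 0 calls among 41 members in the amygdala (background 0.989%) and 0 among 29 in the hippocampus (background 0.927%) with DESeq2, and 0 with edgeR in both. At an unadjusted p below 0.05 there were 4 and 5 members, against 6.79% and 7.96% of all genes tested. The smallest p in the hippocampus belonged to Chga, the precursor of vasostatin and pancreastatin, with 2314, 1840, 2276 and 2041 normalised counts in DM and 2803, 2446, 2670 and 2674 in WT (log2 fold change -0.32, SE 0.10, adjusted p = 0.131). Every DM library lay below every WT library for Chga. The median change of the members tested was -0.18 for amygdala and -0.45 for hippocampus, with -0.01 and 0.00 over all genes. Gnrh1 in the amygdala was at 28.5, 32.8, 33.8 and 18.3 in DM and 1.98, 26.2, 5.39 and 15.3 in WT (log2 fold change 1.21, SE 0.50, adjusted p = 0.518). Leaving out WT replicate 2 gave 3 calls in the amygdala (Gal, Gnrh1 and Nts) and 2 in the hippocampus (Chga and Npy), and leaving out WT replicate 4 gave 2 in the amygdala (Cck and Grp). The amygdala hypothalamic sum, 2527 to 3427 in DM, was 1126, 3040 and 2854 in the WT mice other than replicate 2, and its part was not tested. With only the DM and WT libraries in the fit, 4 members were called in the hippocampus: Agt, Chga, Pdyn and Tac1.

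DM against Kmt2a-HET gave 0 calls among 41 members in the amygdala (background 0.805%) and 0 among 30 in the hippocampus (background 0.606%), and edgeR gave 0. At an unadjusted p below 0.05 there were 10 members for amygdala (all genes tested 6.55%) and 2 for hippocampus (all genes tested 5.03%). Adcyap1 came closest to the threshold, with 171, 155, 212 and 301 normalised counts in DM amygdala and 370, 405, 442 and 378 in Kmt2a-HET, 2 groups that did not overlap (log2 fold change -0.93, SE 0.28, adjusted p = 0.101). When the fit held only the libraries of these 2 genotypes, 10 members were called in the amygdala: Adcyap1, Agt, Calca, Cartpt, Chga, Pdyn, Pmch, Pomc, Scg2 and Tac1. Pomc was at 80.2 to 131 in DM and 288 to 373 in Kmt2a-HET. Without DM replicate 4, 3 were called (Adcyap1, Hcrt and Pmch). The hypothalamic marker sum was 2527 to 3427 in DM and 3761 to 4656 in Kmt2a-HET, the striatal sum 33800 to 69202 and 21835 to 48695, and the choroid plexus sum was 45182 and 8560 in DM replicates 1 and 3 against 918 to 1829 in the other amygdala libraries. Without DM replicates 1 and 3, a choice made after the values were seen, 1 member (Calca) was called, and the part of neighbouring tissue in these differences was not tested.

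DM against Kdm5c-KO gave 0 calls among 43 members in the amygdala (background 0.00329%) and 0 among 38 in the hippocampus (background 0.0067%) with DESeq2, and 0 with edgeR. The counts at an unadjusted p below 0.05 were 4 and 9, with 2.29% and 4.52% of all genes tested. Of the 9, Cort, the cortistatin gene, had the smallest p, with 22.8, 21.3, 27.2 and 11.5 normalised counts in DM and 48.9, 32.4, 67.3 and 42.6 in Kdm5c-KO (log2 fold change -1.19, SE 0.33, adjusted p = 0.361). Every DM value was below every Kdm5c-KO value. Sst (-0.73, SE 0.23, adjusted p = 0.667) and Npy (-0.76, SE 0.25, adjusted p = 0.699) lay in the same direction, Npy being at 300, 304, 342 and 200 in DM and 470, 530, 471 and 470 in Kdm5c-KO. The sum of 9 GABAergic interneuron markers was 9802 to 13403 in DM hippocampus and 12226 to 15701 in that of Kdm5c-KO, and its part in these differences was not tested. Agt, Lhb, Pomc and Trh had changes of -0.66, -2.5, -2.36 and -2.46, of which the last pair had no p. Without Kdm5c-KO replicate 4 the Pomc value was -0.5, and without Kdm5c-KO replicate 1 the Trh value was -0.48 and the Agt value -0.12. Without Kdm5c-KO replicate 2, 4 members were called: Cartpt, Cort, Pomc and Sst.

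The interaction, the difference between the DM effect and the sum of the single-mutant effects, gave 0 calls among 43 members in the amygdala (background 0.00329%) and 0 among 38 in the hippocampus (background 0.0%) with DESeq2, and 0 with edgeR. At an unadjusted p below 0.05 there were 12 members in the amygdala, all of them negative, among them Trh (-1.08, SE 0.43), Cartpt (-0.63, SE 0.24), Tac2 (-0.88, SE 0.32) and Scg2 (-0.48, SE 0.17), and 3 in the hippocampus. All genes tested gave 2.82% and 1.91%. The hypothalamic marker sum of the amygdala was 1126 to 5050 (WT), 3761 to 4656 (Kmt2a-HET), 2973 to 5965 (Kdm5c-KO) and 2527 to 3427 (DM), and its part in the interaction was not tested. Without WT replicate 2, Gal, Scg2 and Trh were called in the amygdala. Comparison of each mutant effect between the regions also gave 0 calls among the 44 members for Kmt2a-HET (background 0.0%), Kdm5c-KO (background 0.0125%) and DM (background 0.0125%), with 1, 7 and 6 members at an unadjusted p below 0.05, against 1.77%, 1.99% and 2.02% of all genes tested, and 0 with edgeR. With the mouse as a block, Tac1 was called in the DM comparison, and that was the 1 change of call among these region differences.

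Among receptors and processing enzymes, the somatostatin receptor gene Sstr5 had the smallest adjusted p between genotypes. It was at 62.3, 81.6, 62.5 and 85.1 normalised counts in WT amygdala. Kmt2a-HET had 94.5, 90.3, 64.7 and 61.2, Kdm5c-KO 274, 140, 139 and 203, and DM 169, 186, 126 and 152. In the amygdala both genotypes without Kdm5c lay above both with it, with log2 fold changes against WT of 1.37 in Kdm5c-KO (SE 0.24, adjusted p = 1.2e-05) and 1.12 in DM (SE 0.24, adjusted p = 0.00141). In the hippocampus Sstr5 was at 0, 0, 3.24 and 4.24 in WT and 56.5, 7.21, 8.9 and 10.4 in Kdm5c-KO (3.43, SE 1.04, adjusted p = 0.0996), the highest value being that of Kdm5c-KO replicate 1. The hippocampal values of Kmt2a-HET (12.1, 3.4, 5.59 and 0) and DM (11, 4.63, 9.64 and 1.04) overlapped both of these groups. Pam, which amidates many of these peptides, was at 4314, 4663, 4168 and 4424 in WT hippocampus, 3286, 3647, 3283 and 3774 for Kdm5c-KO and 3985, 3483, 3319 and 3269 for DM. Kmt2a-HET was at 3806, 3884, 3626 and 3829, also below every WT library (log2 fold change -0.21, SE 0.08, unadjusted p = 0.00536, adjusted p = 1). Pam was called lower in Kdm5c-KO and DM, with log2 fold changes of -0.33 (SE 0.08, adjusted p = 0.00563) and -0.32 (SE 0.08, adjusted p = 0.00729). Vipr2, a receptor of VIP and PACAP, was lower in DM than in Kmt2a-HET amygdala (-1.04, SE 0.26, adjusted p = 0.0155), with 40.3, 40.1, 36.8 and 33.4 against 57.2, 93.7, 55.0 and 106. No other receptor or processing gene was called in a genotype comparison with DESeq2, and edgeR called neither Pam nor hippocampal Sstr5.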

How the data were processed

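The amygdala and hippocampus of 16 mice were sequenced, 4 per genotype, from oligo-dT primed directional libraries with ERCC spike-ins. Per the labels the authors aligned reads to mm10 with STAR 2.5.3a, and featureCounts of Subread 1.5.0 is named, but the deposited tables hold expected counts per gene and transcript, 7.072% of the gene values not being whole. The program that estimated them and the annotation release are not given in the sources used here. The 44 members, the receptor and processing lists and the marker lists were chosen with earlier results of these data known.

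Expected counts were rounded and fitted with DESeq2 1.42.0 (R 4.3.3), with all 16 libraries of a region and a genotype term, or all 32 libraries for the regions. p-values were adjusted over all genes (Benjamini-Hochberg) and called below 0.1, fold changes were not shrunken, and outlying counts were not replaced. edgeR 4.0.16 (quasi-likelihood), TMM and ERCC scaling, a filter of 10 counts in 4 libraries, no filter for extreme counts, a threshold of 0.05, only the 2 groups compared, blocks and leaving out each mouse were alternatives. Scripts were tested on simulated data. Symbols and exon lengths came from GENCODE M21, by which 53620 of 53715 genes were named, and coordinates are on mm10 (GRCm38). Some RefSeq starts lie inside the longer GENCODE gene models.

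Values in every library are given for members called between genotypes, for Pomc, Trh, Agt and Lhb, for the 5 members with the largest negative fitted WT region changes, for the 3 called with positive ones and, where a library exceeded 10, for Hcrt, Pmch, Agrp, Avp, Oxt, Prl, Gh and Cga, genes known from the hypothalamus and pituitary. Near 0, ranges stand in place of them. Adcyap1, Chga, Cort, Npy and Gnrh1 were named after their values were seen. Lhb, Pmch, Penk, Nmb, Agrp, Grp, Edn1, Prl, Cga and Prok2 overlap other genes in GENCODE M21. As a check for duplicated libraries, the 48 pairs of libraries within groups were compared and differed by 3.89 to 135 in chi-square per degree of freedom. Mouse numbers in the labels tie the regions of 1 mouse, whose deviations correlated with a median of 0.123 (10 of 16 above 0.1) against -0.0583 between mice. ERCC reads were 0.12% to 0.511% of amygdala and 0.0503% to 0.295% of hippocampal libraries. Depth limits counts near 0, where 3 counts served as the floor. Intervals cover counting error only.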

Additional observations from a re-analysis of the deposited data

Results flagged for a closer look

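Each group of 4 libraries in which at least 1 library exceeded 10 normalised counts was tested, 284 groups of 42 members, while 2 members (Calcb and Rln3) had none. In 41 of these groups, over 27 members, the highest (36) or lowest (5) library stood apart from the other 3 by a gap past the critical value of Dixon's test, which chance gives in about 1 in 20 groups of normally distributed values. Low genes entered only through the high library that then stood apart, so the count of 41 is not set against that rate. The values below are normalised counts.

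Kdm5c-KO hippocampus held 11 of these groups. Replicate 1 was high for Agt (2120), Trh (105), Avp (337), Oxt (48.9), Penk (3322), Tac1 (394) and Cartpt (163), and replicate 4 for Pomc (729) and Cga (133). Replicate 2 was high for Npy (530) and low for Sst (2638). In Kdm5c-KO amygdala the library was replicate 3 in all 6 cases, high for Gh (523), Hcrt (549), Pmch (1120), Prl (103) and Cga (16.4) and low for Edn1 (6.76). DM amygdala had 4, all of them replicate 4, with Hcrt at 234, Pmch at 383, Oxt at 4796 and Nmb at 46.3.

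Gh was highest in replicate 1 of WT and of Kmt2a-HET in both regions, the amygdala values being 36.6 and 80.7 and the hippocampal ones 50.6 and 138. WT replicate 4 was high in the hippocampus for Vip (343), Crh (81.5) and Adcyap1 (180) and low in the amygdala for Cartpt (378). Other WT amygdala libraries that stood apart were replicate 3 for Cga (16.2) and Ghrh (20.5) and replicate 2 for Pnoc (350). In Kmt2a-HET amygdala they were replicate 1 for Pdyn (1347) and Nts (469) and replicate 2 for Vip (163). In Kmt2a-HET hippocampus Prl (28.5, replicate 1), Avp (74.8, replicate 4) and Prok2 (10.3, replicate 3) were high and Tac2 (17.2, replicate 4) was low. The DM hippocampus had Avp (21.2) high and Pthlh (19.5) low, both in replicate 1.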

How the results depend on the processing

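Leaving out each mouse gave, between the regions, 23 to 29 members in WT, 27 to 32 in Kmt2a-HET, 26 to 29 in Kdm5c-KO and 25 to 29 in DM, and among other settings the spike-in scaling took WT to 17 and Kmt2a-HET to 18. The mouse as a block (replicate block by mouse) changed no region count by over 1.5 times, and gave 1 call in the region difference of the DM effect (0 otherwise).

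Calls between genotypes were at the edge of the threshold. The 1 call of Kdm5c-KO against WT in the amygdala (Gh) became 0 at adjusted p below 0.05, with edgeR, with ERCC scaling and with the replicate block in edgeR. In the hippocampus the 1 call (Agt) became 0 with these 4 settings, with TMM size factors, with only the 2 groups compared and without Kdm5c-KO replicates 1 and 4 (added after the data were seen), 2 with no filter for extreme counts and 3 under the replicate block. For DM against Kmt2a-HET in the amygdala, 0 became 1 with the low-count filter, TMM factors or DM replicates 1 and 3 left out (also added), 2 under the replicate block and 10 with only the 2 groups compared. For the hippocampus the replicate block gave 2 in DM against Kmt2a-HET, 6 in DM against Kdm5c-KO (Cort and Sst among them) and 2 in DM against WT (Agrp and Chga), all 0 with that block in edgeR, no filter for extreme counts gave 1 in DM against Kdm5c-KO, and only the 2 groups compared gave 1 and 4 in DM against Kdm5c-KO and WT. Replicate numbers shared across genotypes were not taken to pair the mice: same-number deviations correlated with a median of 0.0716 for amygdala and 0.00378 for hippocampus (9 of 24 pairs above 0.1 each). The replicate 1 mice of the amygdala correlated at 0.183 to 0.36 in every pair, and their activity-induced marker sums were 8169 to 10968.

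Leaving out each mouse gave 0 to 3 members for Kmt2a-HET against WT in the amygdala, 0 to 6 and 0 to 2 for Kdm5c-KO against WT in the amygdala and hippocampus, 0 to 3 and 0 to 2 for DM against WT, 0 to 3 and 0 to 1 for DM against Kmt2a-HET, 0 to 4 for DM against Kdm5c-KO in the hippocampus and 0 to 3 for the amygdala interaction. WT replicate 2 gave the upper end in the amygdala for both single mutants against WT (3 and 6), DM against WT (3) and the interaction (3), and in the hippocampus for DM against WT (2). Kdm5c-KO replicate 2 did so in the hippocampus for Kdm5c-KO against WT (2) and DM against Kdm5c-KO (4). DM replicate 4 did so for DM against Kmt2a-HET in the amygdala (3) and Kmt2a-HET replicate 4 in the hippocampus (1). Gh ranged from 3.28 to 6.33 and Agt from 0.69 to 1.41 on the log2 scale. The amygdala Pomc change in Kdm5c-KO (0.26) ranged from -0.49 to 0.67 and was -0.35 under ERCC scaling. The causes were not tested. With lengths of the longest transcript in place of exon unions, Cck was at 363 FPKM in place of 223 in WT hippocampus and at 166 in place of 102 in WT amygdala, where it then ranked above Scg2 and Chgb (134 each).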
